A study of Xenopus tropicalis with 45 samples.

Results

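Hdac1 occupied 5136 regions of the Xenopus tropicalis genome at st9 (late blastula), and 3207 of them (62.4%) formed the set described here. A region of this set was bound by Hdac1 at st9 and at st10.5 (early gastrula), was not on the list at st8 (mid-blastula), and overlapped a st9 peak of Sox3 by at least 1 bp. Of the 5136 peaks, 4226 overlapped a peak at st10.5, 3831 of these had no peak at st8, and 3207 of these carried Sox3. The other st9 peaks were 624 that followed the same time course without a Sox3 peak (Sox3-free peaks), 395 present at all 3 stages (peaks carried from st8), 809 found at st9 only, and 101 lost by st10.5. Presence and strength of Hdac1 at the 3 stages and of Sox3 chose these regions, so those values are given as a description.

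Hdac1 is a class I histone deacetylase that removes acetyl groups from lysines of histone tails, usually within repressor complexes that hold its close relative Hdac2. It does not read DNA sequence itself and is brought to the genome by other proteins. Sox3 is a maternally supplied HMG-box transcription factor of the SoxB1 group that is best known for keeping ectodermal and neural progenitors in an early state. Acetylated histone H3 marks promoters and enhancers that are open to transcription.

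All peak lists come from wild-type embryos. Hdac1 was profiled by ChIP-seq in whole embryos at st8, st9 and st10.5 and Sox3 at st9, with 2 samples per list. Hdac2 at st9 and st10.5, and Hdac1 in embryos kept in 100 nM TSA or in DMSO from the 4-cell stage and collected at st9 and st10.5, are lists from 1 library each. TSA (trichostatin A) inhibits histone deacetylases broadly and VPA (valproic acid) those of class I, so both act on more than Hdac1. Pan-H3Kac, acetylation of histone H3 at any of several lysines, was profiled at st10.5 in whole embryos, in animal cap explants (AC, presumptive ectoderm) and in vegetal mass explants (VG, presumptive endoderm), the explants having been in DMSO. RNA-seq was made at st10.5 from AC and VG in TSA or DMSO and, in a separate experiment, in 10 mM VPA or water, with 2 libraries in each of 8 groups. Nothing in the labels ties a library to a clutch, so the RNA p-values measure the spread between these libraries.

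Among the genes for which the study designed ChIP-qPCR primers are 4 shown here, each with such a region within 10 kb, because their pairs name stretches of DNA that were probed at these loci. Pairs for other genes are not shown. All letters are in lower case because no part was singled out. The pairs at foxa4, snai1 and tbxt.2 were designed in an intron and the pair at sox17b.2 upstream of the gene, and they were not placed on the genome here.
foxa4 forward: atcagcacttttgtgtcctt
foxa4 reverse: actgtttggggttggaatg
snai1 forward: cgcaccattagcaattcatga
snai1 reverse: ggaagggcaatctaaacaag
sox17b.2 forward: agcacctaggatagtgtcag
sox17b.2 reverse: ttgagaggctgttataggca
tbxt.2 forward: attggattggaacactggga
tbxt.2 reverse: aaggtctattgactctgtttctc
Within 10 kb of these genes lay 3 regions at foxa4, 2 at snai1, 1 at sox17b.2 and 3 at tbxt.2.

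The fold enrichment over input at the st9 Hdac1 summit ranged from 2.21 to 23.5 among the 3207 regions, with a median of 6.88 and quartiles of 5.77 and 8.68. The same value had a median of 5.56 at the Sox3-free peaks and of 8.12 at the peaks carried from st8. At st10.5 the regions had a median fold enrichment of 8.48. The regions were thus intermediate at st9, above the Sox3-free peaks and below those already bound at st8. The st10.5 value divided by the st9 value had a median of 1.16 and was above 1 at 65.9% of regions, against 1.47 and 83.3% at the Sox3-free peaks. The lists were normalized one by one, so these ratios compare lists and carry no replicate error. The regions were spread over all 10 chromosomes, where they made up between 57.4% and 67.2% of the st9 peaks.

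The strongest region, chr3:42502093-42502928 on the v10.0 genome, lay between genes 43258 bp from msx2, a homeobox gene of BMP-exposed ectoderm. Its Hdac1 fold enrichment was 23.5 at st9 and 8.25 at st10.5, and it was on none of the pan-H3Kac lists. The region at snai1, a zinc-finger repressor known for its part in epithelial-mesenchymal transition, spanned chr10:36200428-36202536 and had its summit inside the gene. It had a fold enrichment of 19.8 at st9 and 13.9 at st10.5, with pan-H3Kac in whole embryos and in neither explant. The strongest region near irx1, an Iroquois homeobox gene, had a st9 fold of 21.3 and was acetylated in AC and not in VG. The other genes nearest to the 8 strongest regions were lman1 (22.1), the forkhead gene foxp4 (21.9), LOC116407674 (20.6), cdkal1 (20.5) and LOC116407940 (19.8), and those at lman1, foxp4 and LOC116407674 were acetylated in VG only. The region with the highest Sox3 score, 179.6, lay at chr1:16975907-16977673, 32599 bp from the notochord homeobox gene not, and was acetylated in both explants. At the other end, a region inside dkkx, at chr10:10474625-10475033, had the lowest st9 Hdac1 fold, 2.21, with 8.57 at st10.5.

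The edge of the rule was sharp for most regions. The smallest overlap with Sox3 that kept a region in was 10 bp, at znf143, where the Sox3 score was 33.1, and 2 regions overlapped Sox3 by under 50 bp. The nearest misses were Sox3-free peaks at evx1, with 1 bp between the peaks, and at osr2, with 9 bp. Only 3 Sox3-free peaks had a gap under 100 bp, and the median gap was 8765 bp. Asking for an overlap of 50% of the smaller peak kept 3192 of the 3207 regions.

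Sox3 and Hdac1 shared almost the same summit. The 2 summits lay a median of 36 bp apart (quartiles 16 and 67 bp), within 100 bp at 87.8% of regions and over 500 bp apart at 88 regions. The Hdac1 summit fell inside a Sox3 peak at 98.5% of regions, and 98.3% of regions had a single Sox3 peak. The Sox3 value is a combined score of both replicates with no fixed unit. Its median was 40.6, and the scores of the 2 replicates had a median ratio of 1.00 and a Spearman rho of 0.952 over the 3207 regions. Of the 15695 Sox3 peaks, 3232 (20.6%) overlapped one of these regions, with a median score of 40.1 against 19.1 at the others. The Sox3 score and the Hdac1 fold had a rho of 0.546 over the regions. This is a description over peaks that share libraries and local DNA accessibility.

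Hdac2, which the rule did not use, was on nearly every one of the regions. A Hdac2 peak was present at 98.9% of them at st9 (Wilson 95% interval 98.5 to 99.2%) and at 99.8% at st10.5. Sox3-free peaks had 95.2% (93.2 to 96.6%) at st9 and 99.0% at st10.5, and peaks found at st9 only had 90.4% and 68.7%. These intervals, as all intervals on shares of peaks here, cover counting error only, since peaks of a list are not replicates. The median Hdac2 fold was 9.38 at the regions and 6.85 at Sox3-free peaks at st9, and 14.4 and 10.3 at st10.5. Peaks carried from st8 were above the regions, with folds of 12.9 and 14.9 and a Hdac2 peak at 99.7% and 100%. Over all st9 Hdac1 peaks the st9 share was 97.2%. The Hdac2 lists were long, with 36709 peaks at st9 and 52040 at st10.5. Both classes had a st10.5 value above their st9 value for most peaks, with a median ratio of 1.53 at the regions and 1.51 at Sox3-free peaks. The Hdac2 summit lay a median of 40 bp from the Hdac1 summit at the regions and 62.5 bp at Sox3-free peaks. With the regions in 4 groups of like size by Sox3 score, the median Hdac2 fold at st9 was 7.37, 8.45, 9.89 and 12.5 from the lowest to the highest score. The median st9 Hdac1 fold rose alongside, at 5.88, 6.52, 7.21 and 9.24. The share of regions within 1 kb of a gene end was 25.8% in the lowest group and 8.10% in the highest, so these values were not separated.

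**Figure D1:**
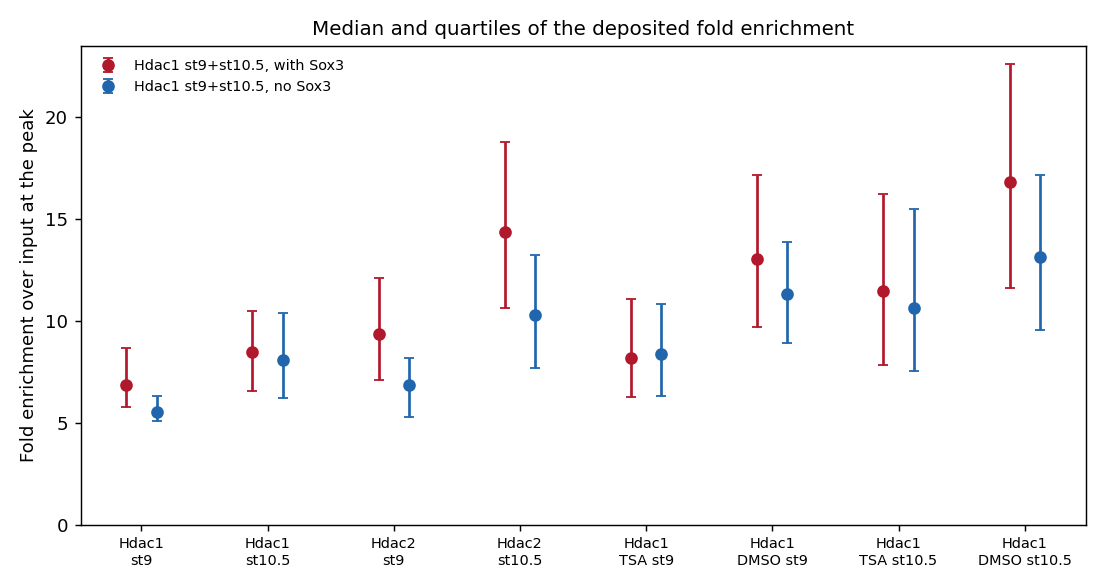
Fold enrichment over input (y axis) of Hdac1 and Hdac2 in 8 lists (x axis) at peaks with Sox3 (red) and Sox3-free peaks (blue) of the same Hdac1 time course. Points are medians and bars the quartiles over peaks present in each list, and the median of peaks with Sox3 is above that of Sox3-free peaks in every list but Hdac1 in TSA at st9, where it is 8.20 against 8.39.

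The regions were found again in libraries the rule did not use. Hdac1 of TSA embryos had a peak at 93.4% of the regions and Hdac1 of DMSO embryos at 97.1% at st9, and at st10.5 the shares were 97.3% in TSA and 98.3% in DMSO. All 4 of these single-library lists held 91.9% of the regions and 93.8% of Sox3-free peaks, both of which were chosen for Hdac1 at st9 and st10.5. The share of st9-only peaks was 40.9%, but these were chosen for having no st10.5 Hdac1 peak, so a low share follows from the rule. The single-library lists were also long, with 45185 to 74097 peaks each, against 5136 on the st9 list that chose the regions. The fold enrichment was lower in the TSA library than in the DMSO library at most regions. At st9 the median fold was 8.20 in TSA and 13.0 in DMSO, and the ratio of TSA to DMSO, taken at regions on both lists, had a median of 0.635, with 7.80% of regions above 1. At st10.5 the medians were 11.5 in TSA and 16.8 in DMSO, and the ratio was 0.698. The DMSO peaks above the upper quartile of fold that overlapped none of the regions had ratios of 0.671 at st9 and 0.733 at st10.5, but these peaks were chosen for a high DMSO fold, which is the denominator. Over all DMSO peaks the ratios were 0.831 and 0.937, and at Sox3-free peaks they were 0.727 and 0.823. With 1 library per treatment and stage there is no replicate check and no test, and the depth and efficiency of each library cannot be told apart from the treatment.

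Most regions overlapped a pan-H3Kac peak by at least 1 bp at st10.5, and acetylated means such an overlap here. A pan-H3Kac peak of whole embryos overlapped 71.7% of the regions (70.1 to 73.2%) and 64.6% of Sox3-free peaks (60.8 to 68.2%). Counting whole embryos and both explants, 87.1% of the regions and 74.2% of Sox3-free peaks met at least 1 list. In the explants, 1037 regions (32.3%) were acetylated in AC only, 476 (14.8%) in VG only, 871 (27.2%) in both and 823 (25.7%) in neither. Sox3-free peaks were divided differently, with 22.0% in AC only, 6.57% in VG only, 37.5% in both and 34.0% in neither. Before position was taken into account, the intervals of the 2 classes did not overlap for AC only (30.7 to 34.0% against 18.9 to 25.4%) or for VG only (13.7 to 16.1% against 4.88 to 8.79%). Peaks carried from st8 had 71 of 395 in AC only and 17.2% in VG only, the second of these above the share of the regions with overlapping intervals. Over all st9 Hdac1 peaks, the regions included, 27.2% were acetylated in AC only, 13.4% in VG only, 25.1% in both and 34.3% in neither. Their VG-only interval (12.5 to 14.3%) overlapped that of the regions. Whole-embryo pan-H3Kac met 64.7% of all st9 Hdac1 peaks. These shares depend on the overlap asked for. At 50% of the smaller peak, 53.0% of regions met whole-embryo pan-H3Kac, and 41.6% were acetylated in neither explant. Sox3-free shares are not given at that overlap. The Hdac1 summit was inside the whole-embryo peak at 65.0% of the 2299 overlapping regions and 89.1% of the 403 overlapping Sox3-free peaks. Over all peaks of each class, Sox3-free peaks thus had the larger share by summit.

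**Figure D2:**
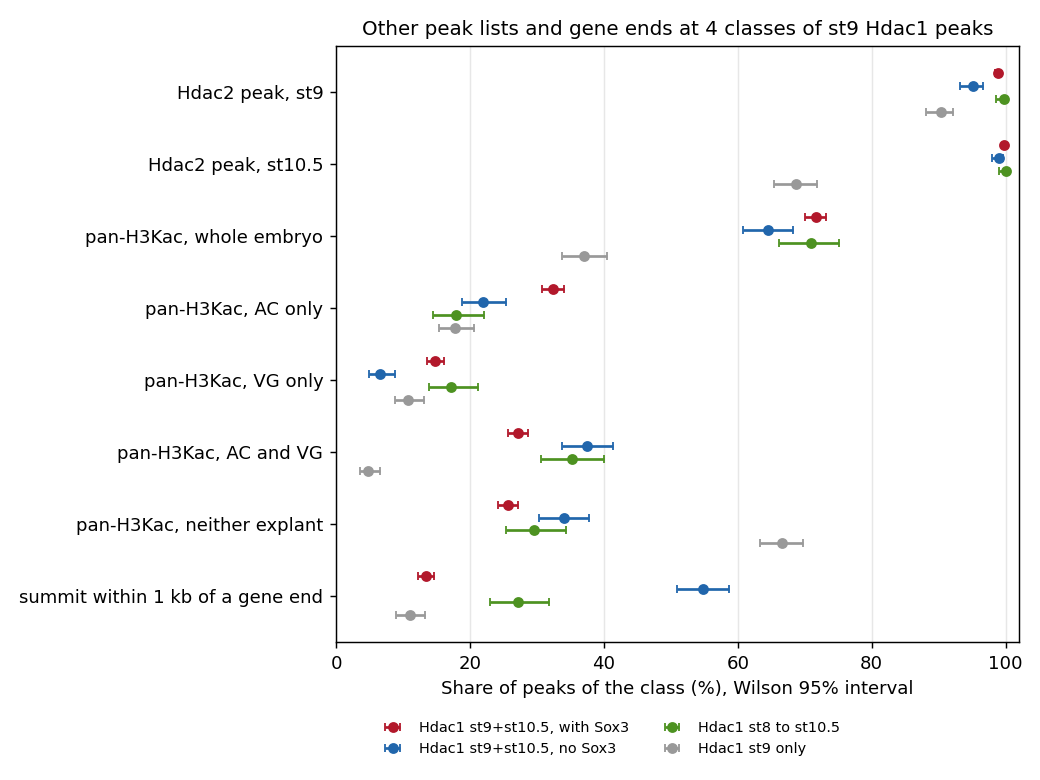
Share of peaks (x axis, percent) that overlap each list or lie near a gene end (y axis) for 4 classes of st9 Hdac1 peaks. Points are shares and bars Wilson 95% intervals, and the 3207 peaks with Sox3 (red) have 32.3% in AC only and 13.4% near a gene end, against 22.0% and 54.8% of the Sox3-free peaks (blue).

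The acetylation flanked the regions. The pan-H3Kac summit lay a median of 456 bp from the Hdac1 summit in whole embryos, 444.5 bp in AC and 444 bp in VG, and under 100 bp away at 1.70%, 2.31% and 3.49% of the acetylated regions. At Sox3-free peaks the distances were 305, 311 and 298 bp, and 16.4%, 16.7% and 15.6% were under 100 bp. Peaks carried from st8 had distances of 424.5, 402 and 408 bp, nearer to those of the regions, with 8.57%, 10.0% and 8.21% under 100 bp. These distances were not divided by position relative to gene ends. The Hdac1 summit was still inside the pan-H3Kac peak of whole embryos at 65.0% of the acetylated regions. At acetylated Sox3-free peaks the share was 89.1%, and at acetylated peaks carried from st8 it was 65.0%.

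**Figure D3:**
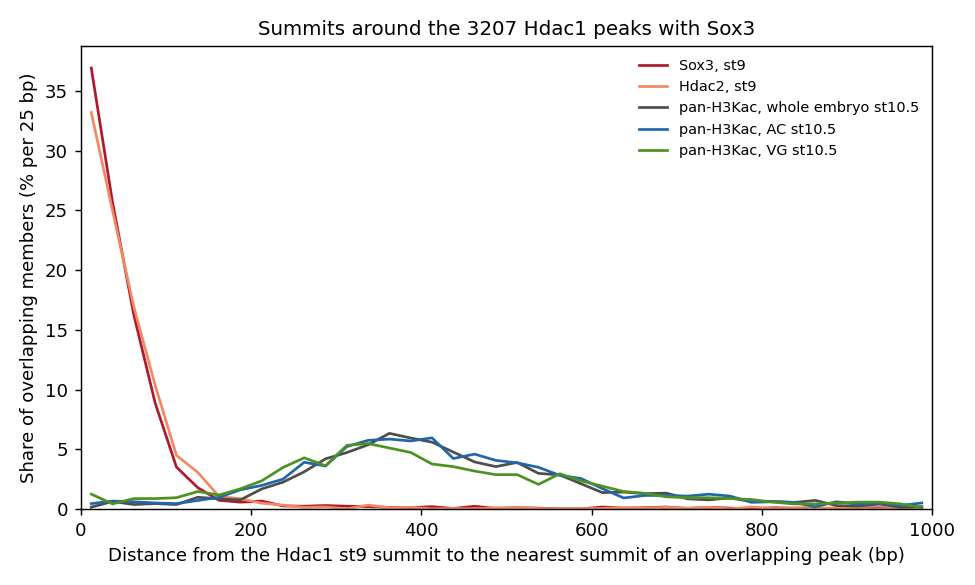
Distance from the st9 Hdac1 summit to the summit of the overlapping peak (x axis, bp), as the share of overlapping regions per 25 bp (y axis). Sox3 and Hdac2 summits (red and orange) gather at the Hdac1 summit, with medians of 36 and 40 bp, while the pan-H3Kac summits (grey, blue and green) have medians of 444 to 456 bp.

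The regions were mostly away from gene ends. The summit was no more than 1 kb from a gene end at 429 regions (13.4%), against 54.8% of Sox3-free peaks and 27.2% of peaks carried from st8. It lay inside a gene span at 51.9% of regions and within 10 kb of a gene at 2567 (80.0%), against 61.7% and 593 of the 624 Sox3-free peaks. The gene table gave spans without strand or exons, so a gene end is a start or a stop, and exons and introns were not told apart. Position bears on the acetylation. Among peaks farther than 1 kb from a gene end, 34.2% of the 2778 regions (32.4 to 35.9%) and 27.3% of the 282 Sox3-free peaks (22.4 to 32.8%) were acetylated in AC only. In VG only the numbers were 416 regions (13.7 to 16.4%) and 7.45% (4.92 to 11.1%), in both 23.9% and 22.3%, and in neither 27.0% and 42.9%. Among peaks within 1 kb of a gene end, 20.5% of 429 regions (16.96 to 24.6%) and 17.5% of 342 Sox3-free peaks (13.9 to 21.9%) were acetylated in AC only, 60 regions (11.02 to 17.6%) and 5.85% (3.82 to 8.86%) in VG only, and 208 regions and 171 Sox3-free peaks in both. The intervals for AC only thus overlapped at both positions, and those for VG only did not. The Hdac2 difference stayed at both positions, with median st9 folds of 9.48 at regions and 6.85 at Sox3-free peaks away from gene ends, and of 8.16 and 6.84 near them.

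Sox3 peaks that met no peak of the st9 Hdac1 list that chose the regions were less often acetylated. Of the 11467 such peaks 44.4% met whole-embryo pan-H3Kac, 19.3% were acetylated in AC only, 12.7% in VG only, 15.5% in both and 52.5% in neither. The 3232 Sox3 peaks over the regions had 72.3%, 32.4%, 14.8%, 27.6% and 25.2%. The 11467 Sox3 peaks off that list had a median score of 18.5. Of them 2631 scored above the lower quartile of the regions, with a median score of 33.7. These 2631 met whole-embryo pan-H3Kac at 52.5% and neither explant list at 45.5%. Their median score was still below the 40.1 of the Sox3 peaks over the regions, and no set matched by score was compared. Many of the 11467 still had Hdac1 or Hdac2 in other lists. They met the st9 Hdac1 list of DMSO embryos at 64.7%, Hdac2 at st9 at 66.7% and the st10.5 Hdac1 list at 46.2%. For the 2631 these shares were 74.5%, 82.2% and 57.2%, so the contrast is not one of bound and unbound sites.

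Many regions lay close together. Of them 810 (25.3%) had another within 5 kb, and joining at 12.5 kb gave 64 clusters of at least 4 regions, with 304 regions among them and 9 in the largest. The nearest gene within 10 kb was taken as the near gene, which gave 1812 near genes for 2567 regions. Of these genes 1337 had 1 region, 312 had 2 and 163 had 3 or more. The gene with most regions was bcor, a corepressor of the Polycomb family of complexes, with 11, followed by the macro domain gene macrod2 with 9. Both zeb2, a zinc-finger repressor of the epithelial programme, and znf608 had 8. The genes mllt10, pax3, a paired-box gene of the neural border, and spata5 had 7 each, and atg5, an autophagy gene, had 6.

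Many listed genes of germ layers, signalling pathways, maternal factors and Hdac1 complexes had a region nearby. Of 169 genes in 11 lists, 96 (56.8%) had a region within 10 kb and so were 96 of the 1812 near genes, against 6.28% of all genes in the RNA tables and 10.6% of those expressed well enough to test. The lists were drawn up with earlier results of these data known and hold well-studied developmental genes. By list, the regions were near 12 of 15 epidermal ectoderm genes, 11 of 14 neural ectoderm genes, 6 of 8 maternal factors, 12 of 22 mesoderm genes, 7 of 12 organizer genes and 7 of 16 endoderm genes. They were near 10 of 18 genes of the Nodal pathway, 10 of 19 of the BMP pathway, 11 of 19 of the Wnt pathway, 8 of 14 of the FGF pathway and 4 of 18 subunits of Hdac1 complexes. Among the maternal factors, sox3 itself had a region within 10 kb and the T-box gene vegt, which starts the endoderm programme, had 5. None lay near hdac1 or hdac2.

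The RNA libraries held 16892279 to 54350322 expected counts. AC DMSO replicate 2 and AC TSA replicate 2 stood apart, with 54350322 and 53281892 counts and ribosomal RNA genes at 35.0% and 39.4% of them, against 0.730 to 4.38% in the other 14 libraries. Some of the counts, medians and named calls that rest on these 2 libraries are given with and without them. The differences between AC and VG of single genes in DMSO are given with them only. The 7 AC markers were higher in AC and the 7 VG markers lower in AC, in both DMSO and water. VG also held RNA of mesoderm markers. The summed TPM of 6 such markers was 421 and 425 in VG DMSO, against 6.49 and 21.1 in AC DMSO. Most of the VG sum was wnt8a, at 385 and 385. In bulk explants, fewer cells of a type and less RNA per cell cannot be told apart. A gene was called when edgeR's quasi-likelihood test gave a Benjamini-Hochberg adjusted p under 0.05 over all genes tested and the fold change was above 2.

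Near genes with AC-only regions were more often higher than lower in AC, and those with VG-only regions more often lower than higher. In DMSO, 380 of the 1611 near genes tested were higher in AC than in VG (23.6%) and 192 lower (11.9%), against 9.67% and 12.1% of all genes tested. Near genes with AC-only regions and no VG-only region were higher in AC in 30.1% of 554 and lower in 7.94%, with a median log2 difference of 0.60. Near genes with VG-only regions and no AC-only region were higher in AC in 13.1% of 245 and lower in 26.9%, with a median of -0.19. Where every region was acetylated in both explants, 27.1% of 398 near genes were higher in AC and 9.30% lower, close to the AC-only shares. With no region acetylated in an explant, the shares were 15.2% and 10.8% of 343. In water, which no ChIP sample shared, 279 of 1607 near genes were higher in AC (17.4%) and 191 lower (11.9%), against 6.05% and 8.89% of all genes tested. There the split was 27.0% higher and 6.02% lower with AC-only regions, and 5.22% higher and 28.1% lower with VG-only regions. With every region acetylated in both explants, 17.7% were higher and 11.1% lower in water. Without AC DMSO replicate 2 and AC TSA replicate 2, 312 of 1642 near genes were higher in AC in DMSO and 196 lower, with 24.8% higher and 7.79% lower with AC-only regions and 11.9% and 25.4% with VG-only regions. Genes near a Sox3-free peak, with those also near a region kept, were higher in AC in 22.7% in DMSO and 14.5% in water. Those near none of the regions were higher in AC in 15.9% in DMSO and 7.71% in water. The count of 380 was 207 without VG DMSO replicate 1 and 218 without VG DMSO replicate 2. In water the 279 became 173 without AC water replicate 1, and the 191 became 104 without AC water replicate 1 and 116 without AC water replicate 2.

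**Figure D4:**
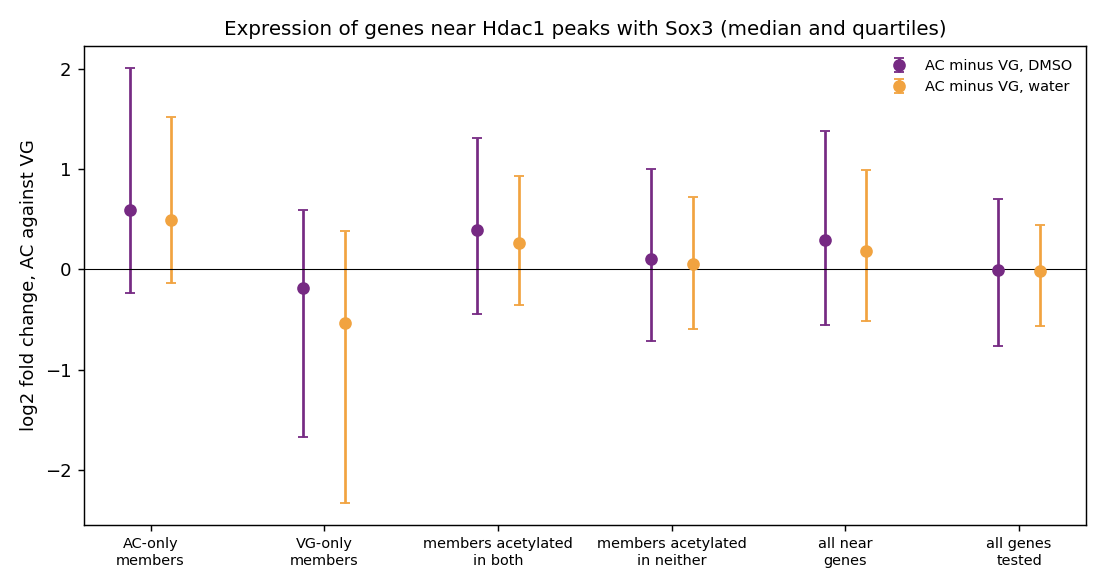
log2 fold change of AC against VG (y axis) of near genes grouped by the acetylation of their regions, beside all near genes and all genes tested (x axis). Points are medians and bars the quartiles over genes, in DMSO (purple) and water (orange), and only the genes with VG-only regions have medians below -0.1, at -0.19 and -0.53.

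Single loci followed this split only in part. The neural LIM homeobox gene lhx5 had 3 regions within 10 kb, all acetylated in AC only, the strongest at chr1:146143724-146145967 with a st9 Hdac1 fold of 17.5. Its TPM was 335 and 202 in AC DMSO, against 0.73 and 0.46 in VG DMSO, a log2 difference of 9.04 ± 0.48 (SE; edgeR adjusted p = 0.000144). At vegt, by contrast, all 5 regions were acetylated in VG only. The TPM of vegt was 71.6 and 75.3 in AC DMSO, against 2266 and 2198 in VG DMSO, a log2 difference of -4.65 ± 0.38 (edgeR adjusted p = 0.000437). The 3 regions within 10 kb of foxa4, a forkhead gene of the organizer, were also acetylated in VG only. Its TPM was 3.15 and 1.57 in AC DMSO, against 485 and 515 in VG DMSO. The libraries of the 2 explants did not overlap for any of the 3 genes. Other loci went the opposite way. With AC-only regions and no VG-only region, snai1 and wnt8a were lower in AC in DMSO, with log2 differences of -3.48 and -7.27, and so was the Wnt receptor gene fzd8 (-1.86). With VG-only and no AC-only regions, the BMP pseudoreceptor gene bambi was higher in AC. Of the list genes near the regions, 9 of 12 epidermal genes were higher in AC in DMSO, and all 7 organizer and all 7 endoderm genes were lower in AC. These lists group genes by known germ layer or region, and the epidermal and endoderm lists share genes with the AC and VG markers. Their direction was thus known beforehand and does not bear on the split.

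More near genes fell than rose in AC with TSA. Of 1611 near genes tested, 68 fell in AC with TSA (4.22%, against 1.0% of all genes tested) and 26 rose (1.61%, against 1.29%). The share that fell was larger where regions were many, at 7.38% of 447 genes with at least 2 regions and 11.9% of 159 genes with at least 3. The median log2 change was -0.09 over the near genes, -0.24 over those with at least 3 regions and 0.00 over all genes tested. Without both libraries of high ribosomal RNA these medians were -0.11, -0.28 and -0.03. Near genes whose regions were all acetylated in both explants fell in 6.28% of 398, and those with no region acetylated in an explant in 1.46% of 343. Of 516 genes near a Sox3-free peak, with those also near a region kept, 3.88% fell and 1.74% rose, close to 4.22% and 1.61%. Those near none of the regions fell in 2.79% and rose in 1.95%. Of the 68 that fell, 23 were higher in AC and 11 higher in VG in the water controls of the other experiment. Of the 26 that rose, 0 were higher in AC and 15 higher in VG. Among all near genes tested in water, 17.4% were higher in AC and 11.9% higher in VG, against 6.05% and 8.89% of all genes tested. The same split over all genes called with TSA was not counted.

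The number of TSA calls rested on every library. The 68 that fell numbered 8 without AC DMSO replicate 1, 18 without AC DMSO replicate 2, 11 without AC TSA replicate 1 and 6 without AC TSA replicate 2, and the 26 that rose numbered 2, 7, 7 and 13. Without AC TSA replicate 2 the order was thus reversed, with 6 fallen and 13 risen. Without both libraries of high ribosomal RNA, which leaves 1 library in each AC group, 0 were called as fallen and 1 as risen by edgeR, where the lone libraries were assumed to vary like the VG groups. The median log2 change was then -0.11 over the near genes, against -0.03 over all genes tested. With ribosomal RNA genes removed and all libraries kept, 76 fell and 27 rose. With all libraries, 395 of 1611 near genes had an unadjusted p under 0.05 by edgeR, against 1987 of 15232 genes tested. DESeq2 called 177 near genes as fallen and 63 as risen. Counts of DESeq2 over all genes are not given here. Some markers of other germ layers moved in the same libraries. The summed TPM of the 7 VG markers was 144 to 246 in AC TSA, against 35.2 to 41.6 in AC DMSO. Much of this was sox17a, at 136 and 85.8 in AC TSA. Also higher in both AC TSA libraries were sox17b.1, mix1 and foxa2, while sox17b.2, mixer and gata5 were not. The summed TPM of the 6 mesoderm markers was 137 to 187 in AC TSA, against 6.49 to 21.1 in AC DMSO. Of these tbxt, myf5, myod1 and wnt8a were higher in both AC TSA libraries, and tbx6 and msgn1 overlapped. The summed TPM of the 7 AC markers was 533 to 1073 in AC TSA, against 1768 to 2772 in AC DMSO, and of these only sox2 overlapped. The part of all these markers in the result was not tested.

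Among the genes that fell were targets and regulators of BMP signalling. The zinc-finger gene gata2, which acts downstream of BMP in ventral ectoderm and mesoderm, had a TPM of 1.76 and 1.39 in AC TSA, against 124 and 94.7 in AC DMSO, a log2 change of -6.21 ± 0.29 (edgeR adjusted p = 0.00111). The ventralizing homeobox gene ventx1.1 had 2.50 and 3.15 in AC TSA, against 323 and 203 in AC DMSO, a change of -6.58 ± 0.40 (edgeR adjusted p = 0.00445). In both genes the treated and control caps were far apart, and in VG the values with TSA were 207 and 137 for gata2 and 150 and 111 for ventx1.1, against 367 and 321 and 174 and 121 in VG DMSO. The secreted BMP regulator szl (sizzled) had 5.76 and 3.92 TPM in AC TSA, against 251 and 196 in AC DMSO (-5.64 ± 0.37, edgeR adjusted p = 0.00498). The pseudoreceptor gene bambi, which dampens BMP signals, had 72.5 and 45.1 in AC TSA, against 542 and 338 in AC DMSO (-3.00 ± 0.23, edgeR adjusted p = 0.00571). Of the 9 BMP pathway genes near the regions that were tested, 5 fell in AC with TSA (ventx1.1, szl, bambi, ventx2.1 and ventx2.2) and 0 rose. Over all near genes 4.22% fell and 1.61% rose, and over all genes tested 1.0% and 1.29%. The calls of gata2, ventx1.1, szl and bambi held without each single AC library and were lost without both libraries of high ribosomal RNA, where the log2 changes were -6.28, -7.16, -5.58 and -3.04. Over all 10 BMP pathway genes tested in that setting the median was -1.68. The Krüppel-like zinc-finger gene klf3 had the next largest fall after ventx1.1, gata2 and szl, with 0.15 and 0.05 TPM in AC TSA, against 6.19 and 1.57 in AC DMSO (-5.34 ± 0.95, edgeR adjusted p = 0.0424), and its call was lost without any 1 of the 4 AC libraries. Those of ventx2.1 and ventx2.2 were also lost without AC DMSO replicate 1, AC TSA replicate 1 or AC TSA replicate 2. The ventx genes are tandem relatives whose shared reads the counting may have divided.

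**Figure D5:**
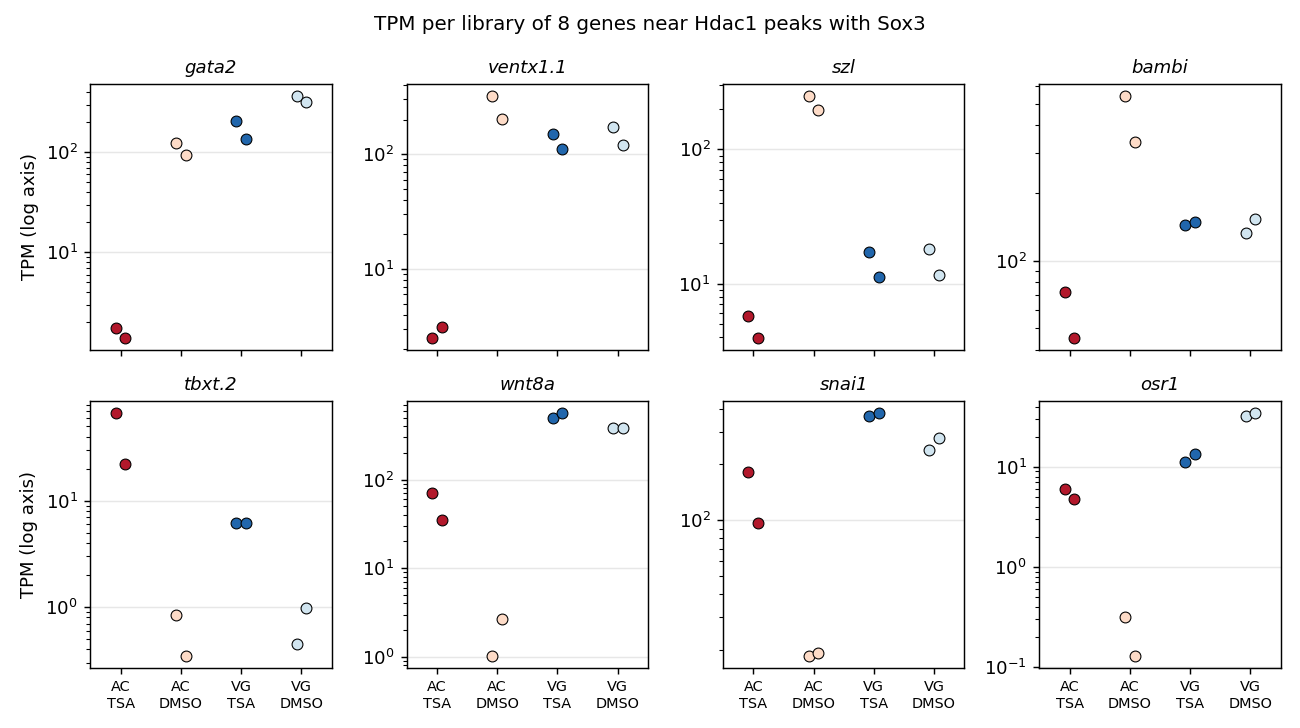
TPM (y axis, log scale, a scale of its own in each panel) of 8 near genes in AC TSA, AC DMSO, VG TSA and VG DMSO (x axis), with 1 point per library. The upper genes are lower in AC TSA than in AC DMSO in both libraries, as gata2 at 1.76 and 1.39 against 124 and 94.7, and the lower genes are higher, as osr1 at 6.08 and 4.75 against 0.32 and 0.13.

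The regions at these genes varied in strength. Within 10 kb of ventx1.1 lay 3 regions, at chr7:26884414-26885609, chr7:26895626-26896386 and chr7:26897384-26898220, with st9 Hdac1 folds of 10.3, 10.6 and 8.56 and Sox3 scores of 84.3, 78.7 and 91.8, all acetylated in both explants. The region near gata2, at chr4:135416384-135417290, lay 994 bp from the gene, had a fold of 6.95 and was acetylated in VG only. The 4 regions of bambi had folds of 5.34 to 11.6, and the 3 of szl folds of 3.44 to 9.93, so that the lowest of each lay under the lower quartile of all regions.

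Ectodermal regulators also fell. Of the 12 epidermal genes near the regions 6 fell in AC with TSA and 0 rose, against 1.0% and 1.29% of all genes tested. Their median log2 change was -2.23, and -2.18 without both libraries of high ribosomal RNA. The homeobox gene msx1 had 3.77 and 1.70 TPM in AC TSA, against 111 and 44.9 in AC DMSO (-4.94 ± 0.63, edgeR adjusted p = 0.0176). The AP-2 gene tfap2a, an early regulator of epidermis and neural crest, had 134 and 66.7 in AC TSA, against 575 and 342 in AC DMSO (-2.27 ± 0.40, edgeR adjusted p = 0.0417). The neural genes did not move as a body, with 2 of 11 fallen, 1 risen and a median of -0.80. Among those that fell was otx2, a homeobox gene of the anterior nervous system, with 1.13 and 1.00 in AC TSA, against 18.2 and 7.96 in AC DMSO. Also lower were the Smad inhibitor gene smad7 (-2.48 ± 0.28, edgeR adjusted p = 0.013) and bcor (-1.33 ± 0.19, edgeR adjusted p = 0.0248). None of these 5 calls held without every single library. Leaving out AC DMSO replicate 1 ended those of msx1, tfap2a, smad7 and bcor, AC DMSO replicate 2 those of tfap2a, smad7 and bcor, and AC TSA replicate 1 or AC TSA replicate 2 those of msx1, tfap2a, otx2 and bcor. Without both libraries of high ribosomal RNA the log2 changes were -5.01 for msx1, -2.20 for tfap2a and -4.15 for otx2. They were -2.73 for smad7 and -1.50 for bcor. Of 4 genes of Hdac1 complexes near the regions, 0 changed in AC by edgeR. In the other lists, 2 of 10 Nodal pathway genes near the regions rose in AC with TSA and 1 fell. Of 10 Wnt pathway genes 1 rose and 2 fell, and of 7 FGF pathway genes 0 rose and 2 fell. Of 7 endoderm genes 0 rose and 1 fell, and of 6 maternal factors 0 rose and 0 fell.

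Mesodermal genes were the main named genes that rose. Of 11 mesoderm genes near the regions that were tested, 4 rose in AC with TSA and 1 fell, with a median log2 change of 1.92. Over all genes tested 1.29% rose and 1.0% fell. The T-box gene tbxt.2, a copy of brachyury, had 66.4 and 22.2 TPM in AC TSA, against 0.84 and 0.35 in AC DMSO (6.10 ± 0.67, edgeR adjusted p = 0.0112), and reads shared with tbxt may have been divided between the copies. The Wnt ligand gene wnt8a of ventrolateral mesoderm had 70.2 and 35.0 in AC TSA, against 1.03 and 2.64 in AC DMSO (4.57 ± 0.50, edgeR adjusted p = 0.0112). In AC TSA wnt8a stayed below its VG levels, which were 494 and 559 in VG TSA and 385 and 385 in VG DMSO. The zinc-finger gene osr1 had 6.08 and 4.75 in AC TSA, against 0.32 and 0.13 in AC DMSO (4.59 ± 0.36, edgeR adjusted p = 0.00571). The gene snai1 had 181 and 97.0 in AC TSA, against 18.6 and 19.1 in AC DMSO (2.74 ± 0.25, edgeR adjusted p = 0.00756). The single region of osr1, at chr5:142584078-142584702, was acetylated in VG only, while the 3 of tbxt.2 were acetylated in AC only or in neither. The organizer gene foxa4 rose too (3.31 ± 0.62, edgeR adjusted p = 0.0477), and of the other 6 organizer genes near the regions 0 passed the test in AC with TSA. The calls of wnt8a and osr1 held without each single library. Those of tbxt.2, snai1 and foxa4 were lost without AC DMSO replicate 1, those of tbxt.2 and foxa4 also without AC DMSO replicate 2, and that of foxa4 without AC TSA replicate 1. Without both libraries of high ribosomal RNA only wnt8a of these 5 was called, at a log2 change of 5.94, while osr1 had 4.11 and the median of the mesoderm genes was 2.36. The lipase gene pnpla2, on none of the lists, had 1.68 and 1.78 TPM in AC TSA, against 0.08 and 0.02 in AC DMSO (5.12 ± 0.91, edgeR adjusted p = 0.042), and its call was lost without any 1 of the 4 AC libraries.

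VPA, tested in other libraries, gave fewer calls. In AC, 37 of 1607 near genes fell (2.30%, against 0.745% of all genes tested) and 13 rose (0.809%, against 1.36%), so only the falling share was above the background. Of 519 genes near a Sox3-free peak, with those also near a region kept, 2.12% fell and 2.31% rose. Among the near genes of the regions, 21 of the fallen and 8 of the risen were also called with TSA in the same direction. The 21 are 56.8% of the VPA and 30.9% of the TSA near genes that fell. The same overlap over all genes called was not counted, so these shares have no background to be read against. The gene gata2 had 0.60 and 1.02 TPM in AC VPA, against 56.1 and 72.4 in AC water (-6.46 ± 0.30, edgeR adjusted p = 0.00216). The epidermal genes fell in 7 of 12 and the BMP pathway genes in 1 of 9, where bambi passed (-2.02 ± 0.31, edgeR adjusted p = 0.0384) and ventx1.1 did not, with 22.0 and 31.9 TPM in AC VPA against 180 and 115 in AC water. The gene tbxt.2 had 17.6 and 7.84 in AC VPA, against 0.31 and 0.79 in AC water (4.33 ± 0.60, edgeR adjusted p = 0.0355). Other large falls with VPA were those of msx1 (-4.87 ± 0.90, edgeR adjusted p = 0.0477), of the actin-binding protein gene tagln2 (-4.65 ± 0.79, edgeR adjusted p = 0.041) and of the PR domain gene prdm14 (-4.53 ± 0.48, edgeR adjusted p = 0.0276). Large rises were those of pnpla2 (5.65 ± 0.94, edgeR adjusted p = 0.0385), osr1 (4.26 ± 0.78, edgeR adjusted p = 0.0474) and the POU gene pou3f3 (3.34 ± 0.57, edgeR adjusted p = 0.0424). The call of gata2 held without each single library, while those of the other 8 genes called here were lost without any 1 of the 4 AC libraries. The 37 that fell numbered 1 without AC VPA replicate 1, 8 without AC VPA replicate 2, 1 without AC water replicate 1 and 1 without AC water replicate 2, and the 13 that rose numbered 0, 6, 0 and 0. The 6 mesoderm markers summed to 187 and 52.0 TPM in AC VPA, against 9.69 and 9.31 in AC water. Of these tbxt, myod1 and wnt8a were higher in both AC VPA libraries, and tbx6, myf5 and msgn1 overlapped. The 7 VG markers summed to 162 and 65.4, against 18.03 and 42.2 in AC water. Of these sox17a, mixer, mix1 and foxa2 were higher in both AC VPA libraries, and sox17b.1, sox17b.2 and gata5 overlapped. The part of these markers was not tested.

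Few near genes passed edgeR's test in VG, in the fit that took no account of replicate numbers. With TSA, 187 of 1611 near genes had an unadjusted p under 0.05 by edgeR, against 629 of 15232 genes tested. DESeq2 called 12 near genes as risen and 57 as fallen. By edgeR 0 were called as risen and 1 as fallen, against 0.0% and 0.0131% of all genes tested. The 1 call was lost when any 1 of the 4 VG libraries was left out. With VPA 0 rose and 0 fell by edgeR, against 0.0% of all genes tested in each direction. An unadjusted p under 0.05 by edgeR was found for 268 of 1607 near genes, against 1340 of 15166 genes tested. DESeq2 called 18 near genes as risen and 84 as fallen. The difference of the TSA effect between AC and VG was itself past the threshold for 6 near genes (0.372%, against 0.0853% of all genes tested), among them gata2, ventx1.1, szl, bambi and osr1, and that of the VPA effect for 1, gata2. Without both libraries of high ribosomal RNA the difference of the TSA effect passed for 0 near genes by edgeR.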

How the data were processed

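For ChIP-seq, the authors mapped reads with Bowtie2 2.4.4 (v10.0 assembly) and found peaks over input with MACS2 2.7.1. Each deposited peak carries a fold enrichment (a ratio over input at the summit) and a -log10 q. Hdac1 and Sox3 lists passed an IDR of 0.05 between 2 replicates, and the deposited Sox3 list holds a combined score. The authors kept pan-H3Kac peaks found in both replicates, with second explant replicates downsampled to 25%. Hdac2 and TSA or DMSO Hdac1 lists are single libraries. The lists hold no reads, so the depth behind each peak is unknown from them, and read numbers the study gives for explant pan-H3Kac were not used here. The authors obtained expected counts and TPM per gene with STAR 2.7.3a and RSEM 1.3.3, and the deposited expected counts are not normalized.

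Peaks sharing 1 bp were counted as overlapping (Python 3.11.15, pandas 2.3.3), with the highest value taken where several overlapped, and shares were given Wilson 95% intervals. Gene spans and symbols come from RefSeq on the same assembly. The near gene is the one nearest to a summit within 10 kb. After rounding, expected counts passed filterByExpr and TMM scaling and entered edgeR 4.0.16 in R 4.3.3 (quasi-likelihood, 1 mean for each of 4 groups per experiment, 8 libraries, no block), a call needing an adjusted p (Benjamini-Hochberg) below 0.05 and more than a 2-fold change. Samples were grouped by their labels. Depth was 16892279 to 54350322 counts per RNA library, and the scripts were tested on simulated data.

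Alternatives were an overlap of 50%, a -log10 q of at least 10, midpoints, distances of 5 and 50 kb, RLE, DESeq2 1.42.0, no filter, the adjusted p alone, a replicate block, removal of ribosomal RNA genes, log2 TPM tested by limma 3.58.1 with a pseudocount of 1 or of 0.1, and each library left out. Removing both libraries of high ribosomal RNA was added after seeing the data. The members and gene lists were chosen with earlier results of these data known. Genes were named by rule: those nearest to the 8 regions of highest st9 fold, the 8 near genes with most regions, list genes near the regions that had 3 or more or were called in any contrast, and the 4 largest calls per direction and inhibitor contrast. Of the list genes, those described singly were chosen after their values were seen. The others are given in counts, for every list with TSA in AC and for some lists in the other comparisons. The genes dkkx, znf143, evx1, osr2 and not were named for their place at the ends of a range. Motifs were not searched, since no genome sequence was at hand. Amanitin, uninjected, H3K18ac and TSA pan-H3Kac samples were not analysed here, and values of 1 near gene are not reported here.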

Additional observations from a re-analysis of the deposited data

Results flagged for a closer look

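The effect of TSA differed between AC and VG for gata2, ventx1.1, szl, bambi and osr1 by edgeR's interaction test with Benjamini-Hochberg adjustment over all genes tested. The difference of log2 changes, AC minus VG, was -5.18 for gata2 (adjusted p = 0.0129), -6.37 for ventx1.1 (adjusted p = 0.0148), -5.55 for szl (adjusted p = 0.0169) and -3.00 for bambi (adjusted p = 0.0377), all of which fell in AC in both TSA libraries. It was 6.05 for osr1 (adjusted p = 0.0148). In VG, osr1 had 11.3 and 13.4 TPM with TSA, against 32.2 and 34.3 with DMSO, so the values of TSA were above DMSO in AC and below it in VG in every library. Without both libraries of high ribosomal RNA the differences were -5.27 for gata2, -6.97 for ventx1.1, -5.51 for szl, -3.06 for bambi and 5.55 for osr1, with edgeR adjusted p from 0.169 for bambi and osr1 to 0.292 for szl.

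The effect of VPA differed for gata2, by -5.65 (edgeR adjusted p = 0.018).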

How the results depend on the processing

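The set itself held 3193 regions at an overlap of 50%. At that overlap whole-embryo pan-H3Kac fell to 53.0% of regions, AC only to 24.01% and both explants to 18.6%, and neither rose to 41.6%. With only peaks of a -log10 q of at least 10, the shares were 89.0% and 98.2% for Hdac2 at st9 and st10.5, 76.4% and 88.5% for Hdac1 in TSA, 92.8% and 96.0% for Hdac1 in DMSO, 24.5% for both explants and 28.4% for neither, as a shorter list gives fewer overlaps.

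Counts of near genes called moved as follows, and the cause was not tested. DESeq2 gave 63 up and 177 down for TSA in AC, 12 and 57 in VG, 49 and 129 for VPA in AC, and 18 and 84 in VG. With the replicate block within tissue these were 100 and 215, 15 and 65, 43 and 106, and 9 down for VPA in VG. The labels do not say that a replicate number marks a shared clutch, and only 2 numbers exist per group. Deviations of same-numbered libraries had correlations of 0.80 in AC and 0.78 in VG and of -0.10 to -0.05 across explants for the TSA experiment, and of 0.46 to 0.63 over all 6 pairs of groups for the VPA experiment. Without the filter the counts were 2 and 7 for TSA in VG, 28 and 70 for VPA in AC, and 6 and 25 in VG. limma on TPM plus 0.1 gave 34 down and 27 up for TSA in AC, 0 down in VG, and 20 up and 21 down for VPA in AC, and on TPM plus 1 it gave 21 up for VPA in AC and 1 down in VG.

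Leaving out 1 library gave 6 to 18 down and 2 to 13 up for TSA in AC, 0 down in VG, and 1 to 8 down and 0 to 6 up for VPA in AC. The ranges were 207 to 337 higher and 128 to 160 lower in AC in DMSO, and 173 to 216 higher and 104 to 158 lower in water. Without both libraries of high ribosomal RNA, TSA gave 1 up and 0 down in AC and 0 down in VG. None of the calls on named genes changed sign under any setting run, while 365 of 2163 alternative values for them lost the call and 1798 kept it. These totals pool the calls of AC against VG with those of the inhibitors. Most of the named inhibitor calls in AC were lost when 1 AC library of that inhibitor was left out. The calls of gata2, ventx1.1, szl, bambi and osr1 for TSA in AC held without each single library. They were lost without both libraries of high ribosomal RNA, and that of wnt8a held in both settings.

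With 2 libraries per group, changes under about the spread of the replicates were not detectable, and peaks without reads give no error between replicates.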
